A study of Mus musculus with 7 samples.

Results

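The miR-29 family of mouse kidney was described through its 3 guide strands, mmu-miR-29a, mmu-miR-29b and mmu-miR-29c. They were taken by name from the array files, starred passenger strands left out, and are 3 of the 611 mouse microRNAs on the array and 3 of the 213 that were bright enough to test. Levels were measured in whole kidneys of 4 wild-type males (mgb+/+, mice 1 to 4) and 3 homozygous megabladder males (mgb-/-, mice 2 to 4), all 3.5 to 4 weeks old and each on its own 1-colour Agilent microRNA array. Of the 4 mutant kidneys that the series text names, that of mouse 1 was not analysed here. The megabladder line is a mutant whose bladder lacks normal smooth muscle, which obstructs the flow of urine and dilates the kidneys. The labels give a single RNA preparation of the whole organ per mouse and no further treatment, and an array of microRNAs does not read the mutated locus. Because the whole kidney was sampled, fewer cells of a type and less RNA per cell cannot be told apart.

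MicroRNAs guide a silencing complex to messenger RNAs, and the bases near the 5′ end of the guide strand, the seed, set most of the pairing. The miR-29 guides are known as repressors of extracellular matrix messenger RNAs, among them those of fibrillar collagens, elastin and fibrillin, and low miR-29 is a known feature of fibrotic kidney, heart and lung. TGF-beta is known to lower miR-29. No target messenger RNA was measured in these kidneys. The comparison of the genotypes asked whether the guides differ in an obstructed kidney at this age, and how far they vary between mice of the same genotype.

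The sequences show why the 3 guides are treated as a family and where they part. Each is printed 5′ to 3′ from RefSeq (GRCm38.p6), with the seed, bases 2 to 8, in capitals. All 3 names, and that of the passenger strand miR-29c*, matched a RefSeq entry.
mmu-miR-29a: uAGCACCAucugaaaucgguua
mmu-miR-29b: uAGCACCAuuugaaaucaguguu
mmu-miR-29c: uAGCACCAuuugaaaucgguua
mmu-miR-29c*: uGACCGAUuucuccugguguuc
The seed AGCACCA was shared by all 3 guides and by no other of the 1679 mature mouse names in the table. Counted from 1 at the 5′ end, mmu-miR-29a differs from mmu-miR-29c by C10U alone. mmu-miR-29b differs from mmu-miR-29c by A18G, G21U and U22A and is 23 bases long, against 22 for the others. How far a probe for one guide also binds another was not tested.

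The family is made from 2 gene pairs. Mir29a and Mir29b-1 lie on the minus strand of chromosome 6, and Mir29b-2 and Mir29c on the plus strand of chromosome 1. No other annotated gene starts between the members of either pair, and the noncoding gene A330023F24Rik overlaps the pair on chromosome 1. The array files name build mm9 and the RefSeq tables another, so no positions are given. The hairpins below show that both Mir29b genes carry the same guide, in capitals, so that the array cannot assign mmu-miR-29b to a locus, and that the Mir29c hairpin carries the miR-29c* sequence in its first arm.
Mir29b-1: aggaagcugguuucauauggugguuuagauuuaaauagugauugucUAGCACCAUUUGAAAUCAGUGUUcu
Mir29b-2: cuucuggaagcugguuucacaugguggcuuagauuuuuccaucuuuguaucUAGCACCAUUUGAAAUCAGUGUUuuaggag
Mir29c: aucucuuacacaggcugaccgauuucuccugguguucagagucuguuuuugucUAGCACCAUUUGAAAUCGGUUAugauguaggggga

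The arrays detected 190 to 210 of the 611 mouse microRNAs above background, and shared 1 slide and 1 scan. The wild-type arrays filled 1 row of that slide and the megabladder arrays the other row, so a row effect and a genotype effect cannot be told apart. Wild-type mice 3 and 4 stood apart from the other 5 arrays on the first principal component (7.22 and 6.92, against -4.10 to -0.99), which held 70.8% of the variance. Among the families that an earlier analysis of these data found to differ there (the repeat-rich miR-297, miR-466, miR-467, miR-574, miR-669 and miR-1187), 17 microRNAs were tested. Their median was at the floor of 3.51 log2 units in both of these mice and 5.35 to 5.92 in the other 5. Results are therefore given with and without these mice.

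A level is the log2 of the scanner signal after each array was scaled by the 75th percentile of its 292 probes detected on every array, averaged over a microRNA's probes. Levels are compared between mice for 1 microRNA at a time, since probes for different microRNAs differ in brightness. mmu-miR-29a had levels of 8.67, 8.90, 10.46 and 10.27 log2 units in wild-type mice 1 to 4. It had 9.79, 9.37 and 8.85 in megabladder mice 2, 3 and 4. All 3 megabladder values lay inside the wild-type range, above mouse 1 and below mice 3 and 4.

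mmu-miR-29b was high and low in the same wild-type mice. Its levels were 7.33, 7.29, 9.25 and 9.05 log2 units in wild-type mice 1 to 4, and 8.43, 7.83 and 7.64 in megabladder mice 2, 3 and 4. Its 3 megabladder values fell in the gap between wild-type mice 1 and 2 on the low side and mice 3 and 4 on the high side. mmu-miR-29c, whose gene lies in the chromosome 1 pair beside Mir29b-2, had 9.32, 9.35, 10.25 and 10.21 log2 units in wild-type mice 1 to 4. In megabladder mice 2, 3 and 4 it had 10.03, 9.23 and 9.77. Wild-type mice 3 and 4 were the highest of the 7 kidneys for all 3 guides, while the lowest kidney was wild-type mouse 1 for mmu-miR-29a, wild-type mouse 2 for mmu-miR-29b and megabladder mouse 3 for mmu-miR-29c.

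**Figure D1:**
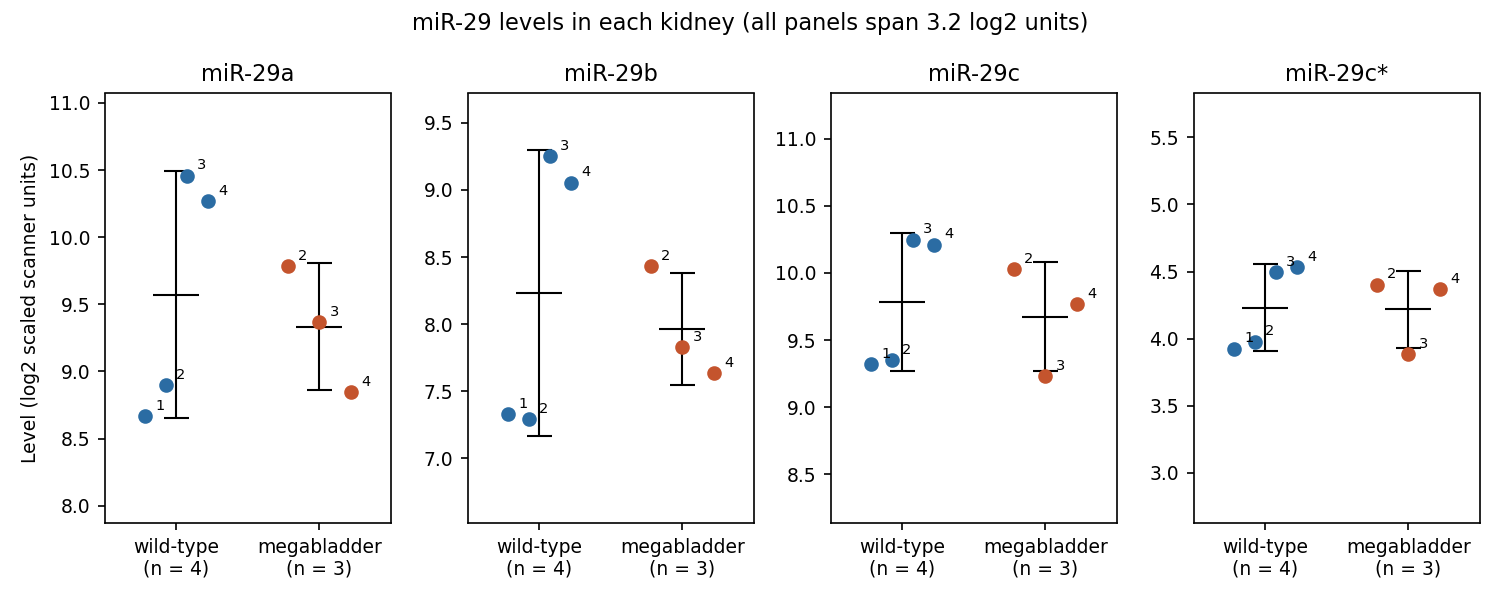
Level of each miR-29 strand (vertical axis, log2 scaled scanner units) in each kidney, with wild-type mice in blue and megabladder mice in orange, numbered as in the labels; the long bar is the mean and the short bars are 1 SD. Each panel has its own axis spanning the same number of log2 units, and in each the genotypes overlap, with wild-type mice 3 and 4 above all other kidneys.

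No guide passed the test between genotypes. mmu-miR-29a averaged 9.57 ± 0.92 log2 units in the wild-type kidneys (SD, n = 4) and 9.33 ± 0.47 in the megabladder kidneys (SD, n = 3). The difference, megabladder minus wild-type, was -0.24 (SE 0.50, 95% interval -1.41 to 0.93), or 1.18-fold lower, with a limma adjusted p of 0.873. mmu-miR-29b averaged 8.23 ± 1.07 (SD, n = 4) and 7.97 ± 0.42 (SD, n = 3), a difference of -0.27 (SE 0.56, 95% interval -1.58 to 1.05; limma adjusted p = 0.873). mmu-miR-29c averaged 9.78 ± 0.52 (SD, n = 4) and 9.68 ± 0.41 (SD, n = 3), a difference of -0.11 (SE 0.31, 95% interval -0.84 to 0.63; limma adjusted p = 0.911). The intervals are wide. For mmu-miR-29a, megabladder levels between 0.376 and 1.91 times the wild-type level lie within it, and for mmu-miR-29c between 0.558 and 1.54 times, so these arrays do not show that the guides are equal in both genotypes.

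Limma called 0 of the 3 guides at an adjusted p under 0.05, and 0 also at an unadjusted p under 0.05 (0.646, 0.647 and 0.740). Over all 213 microRNAs it called 7, or 3.29%, of which 6 rose and 1 fell. The 6 that rose were dim, with wild-type means of 3.55 to 3.83 log2 units, near the floor of 3.51, and 1 of them was of the repeat-rich families. The groups overlapped for all 3 guides, while for 22.1% of tested microRNAs (47 of 213) the megabladder values all lay on 1 side of the wild-type values. That share was not matched for brightness, and 13 of the 47 were of the repeat-rich families. In order of p the guides stood at places 156, 158 and 173 of 213.

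The negative sign of the differences rested on single mice. Without wild-type mouse 3 the difference was 0.056 for mmu-miR-29a, 0.074 for mmu-miR-29b and 0.048 for mmu-miR-29c. Without wild-type mouse 4 it was 0.0040 for mmu-miR-29b and 0.031 for mmu-miR-29c, and without megabladder mouse 3 it was 0.12 for mmu-miR-29c. With wild-type mice 3 and 4 both left out, 2 wild-type kidneys remained and the megabladder mean was the higher for each guide. The differences were then 0.54 for mmu-miR-29a (95% interval -0.13 to 1.20, limma adjusted p = 0.498), 0.64 for mmu-miR-29b (0.06 to 1.23, adjusted p = 0.293) and 0.32 for mmu-miR-29c (-0.27 to 0.91, adjusted p = 0.655). For mmu-miR-29b the unadjusted limma p without both mice was 0.0364. Wild-type mice 3 and 4 were the highest of all kidneys for each guide, so the upward move was set by leaving them out. The interval and p without them are therefore no evidence of a rise.

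How the arrays were scaled moved the size of the differences. The scaling factor itself was 0.61 log2 units lower in megabladder arrays, with no overlap (2-sided exact permutation p = 0.0286, the lowest p possible with 35 splits). With no scaling the differences were -0.85 for mmu-miR-29a, -0.88 for mmu-miR-29b and -0.72 for mmu-miR-29c, where the median of all tested microRNAs was -0.50. Scaling by the 75th percentile over all probes gave -0.98, -1.01 and -0.85, with the median of all at -0.62. Measured from the median of all tested microRNAs, which was 0.09 in the scaling used throughout, the 3 guides differed by -0.33, -0.35 and -0.19. With quantile normalization mmu-miR-29c turned to 0.11 above that median, and mmu-miR-29a and mmu-miR-29b were at -0.065 and -0.21 from it. No guide passed in limma under any of these scalings, with adjusted p from 0.104 to 0.924. Calls among all microRNAs also turned with scaling, from 6 higher and 1 lower to 1 higher and 68 lower with none and 1 of each with scaling by the median.

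**Figure D2:**
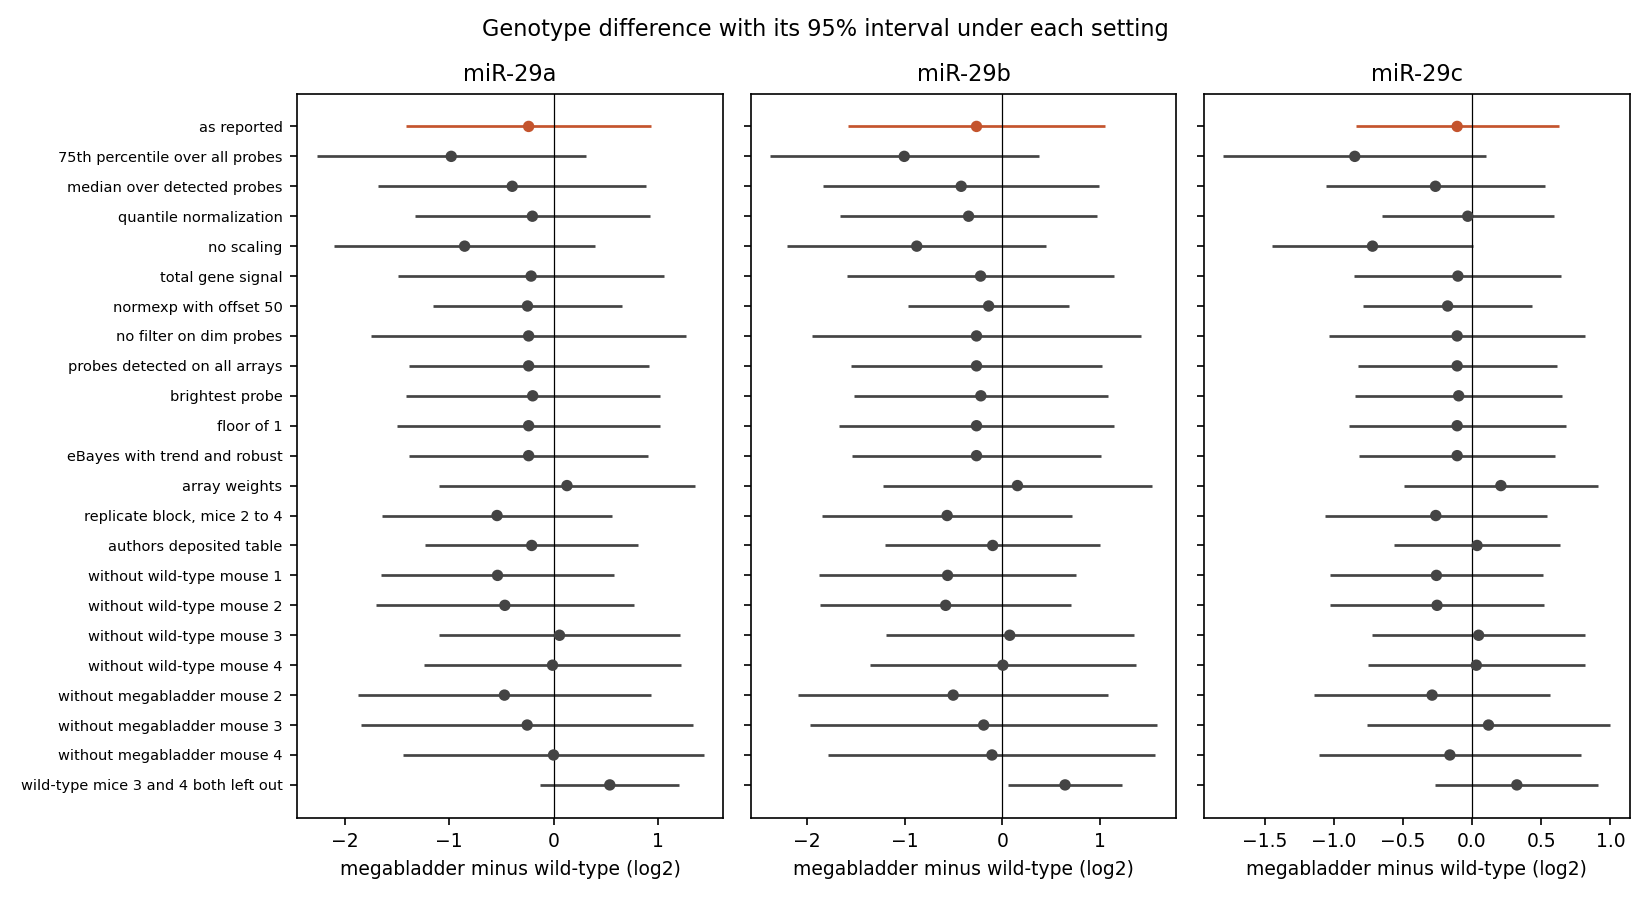
Difference between genotypes (horizontal axis, megabladder minus wild-type, log2 units; points) with its 95% interval (lines) for each guide, as reported (orange) and under each other way of processing (grey). The interval for mmu-miR-29b with wild-type mice 3 and 4 both left out, 0.06 to 1.23, lies above 0. All other intervals of every guide include 0, that of mmu-miR-29c with no scaling only just (-1.4487 to 0.0094). Both mice were the highest for each guide, so leaving them out moves the difference up by construction.

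A comparison that cancels any single factor per array called no guide either. Each guide was set against the median of all tested microRNAs on its own array. Relative to it, mmu-miR-29a lay at 3.28, 3.54, 5.47 and 5.28 log2 units in wild-type mice 1 to 4 and at 4.25, 3.74 and 3.28 in megabladder mice 2, 3 and 4. The genotypes overlapped, and differed by -0.64 (2-sided exact permutation p = 0.4). The difference was -0.66 for mmu-miR-29b (exact p = 0.429) and -0.50 for mmu-miR-29c (exact p = 0.343), and adjusted over the 3 guides each had p = 0.429. These differences shrank to -0.19, -0.33 and -0.013 with quantile normalization, to -0.24, -0.27 and -0.11 with no filter on dim probes, and to -0.38, -0.41 and -0.25 with probes detected on all arrays. They were -0.23, -0.12 and 0.014 in the authors' deposited table. Other choices did not shrink them throughout. Comparing same-numbered mice 2 to 4 gave -1.01, -1.03 and -0.73, and normexp background correction gave -0.69, -0.58 and -0.61. Without wild-type mouse 3 they were -0.22, -0.20 and -0.23, without wild-type mouse 4 -0.29, -0.28 and -0.25, and with both left out 0.41, 0.51 and 0.20. Without wild-type mouse 1 or 2 they reached -0.95 for mmu-miR-29a and -1.003 for mmu-miR-29b. For mmu-miR-29c the difference was -0.23 without megabladder mouse 3, and for mmu-miR-29a -0.39 without megabladder mouse 4. The array medians themselves were 4.99 in both wild-type mice 3 and 4 and 5.35 to 5.63 on the other 5 arrays. The scaled levels themselves differed by -0.24 for mmu-miR-29a, -0.27 for mmu-miR-29b and -0.11 for mmu-miR-29c. The rest of the -0.64, -0.66 and -0.50 is the difference between genotypes in the array medians.

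The signals before any scaling show the same kidneys high. The total signal of mmu-miR-29a was 665, 890, 2995 and 1856 scanner units in wild-type mice 1 to 4, and 1056, 948 and 452 in megabladder mice 2, 3 and 4. That of mmu-miR-29b was 421, 466.8, 2028 and 1230 units in the wild-type and 651, 517 and 317 in the megabladder mice. For mmu-miR-29c it was 925, 1064, 2242 and 1545 units, and 1064, 746 and 740. In the authors' deposited table, whose scaling the sources used here do not give, mmu-miR-29a was listed at 687, 724, 1996 and 1814 in wild-type mice 1 to 4 and at 1294, 1003 and 774 in megabladder mice 2, 3 and 4. In both the unscaled signals and the authors' deposited table wild-type mice 3 and 4 were the highest for mmu-miR-29a and mmu-miR-29b. For mmu-miR-29c the authors' deposited table lists 1379 for wild-type mice 3 and 4 and for megabladder mouse 2 alike.

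The spread between mice can be set beside the error of the scanner readings, which does not cover RNA preparation, labelling or hybridization. Each guide was read by 2 probes of 10 spots, of which 7 to 10 were used. All used spots were above background and none was saturated. The standard error between spots was 0.677% to 3.02% of a probe's signal, and the scanner software's own error on the total signal was 7.10% to 9.29%. Between mice, mmu-miR-29a ranged 3.46-fold among the wild-type and 1.92-fold among the megabladder kidneys. mmu-miR-29b ranged 3.90-fold and 1.74-fold, and mmu-miR-29c 1.90-fold and 1.74-fold.

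The probes of each guide gave the same picture. Over the 7 arrays the SD of the log2 difference between the probes was 0.068 for mmu-miR-29a, 0.062 for mmu-miR-29b and 0.018 for mmu-miR-29c. The genotype differences were -0.28 and -0.20 for the probes of mmu-miR-29a. They were -0.31 and -0.22 for those of mmu-miR-29b, and -0.12 and -0.10 for those of mmu-miR-29c. All 6 differences were negative, and the probes of a guide differed by less than the standard error of its genotype difference.

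**Figure D3:**
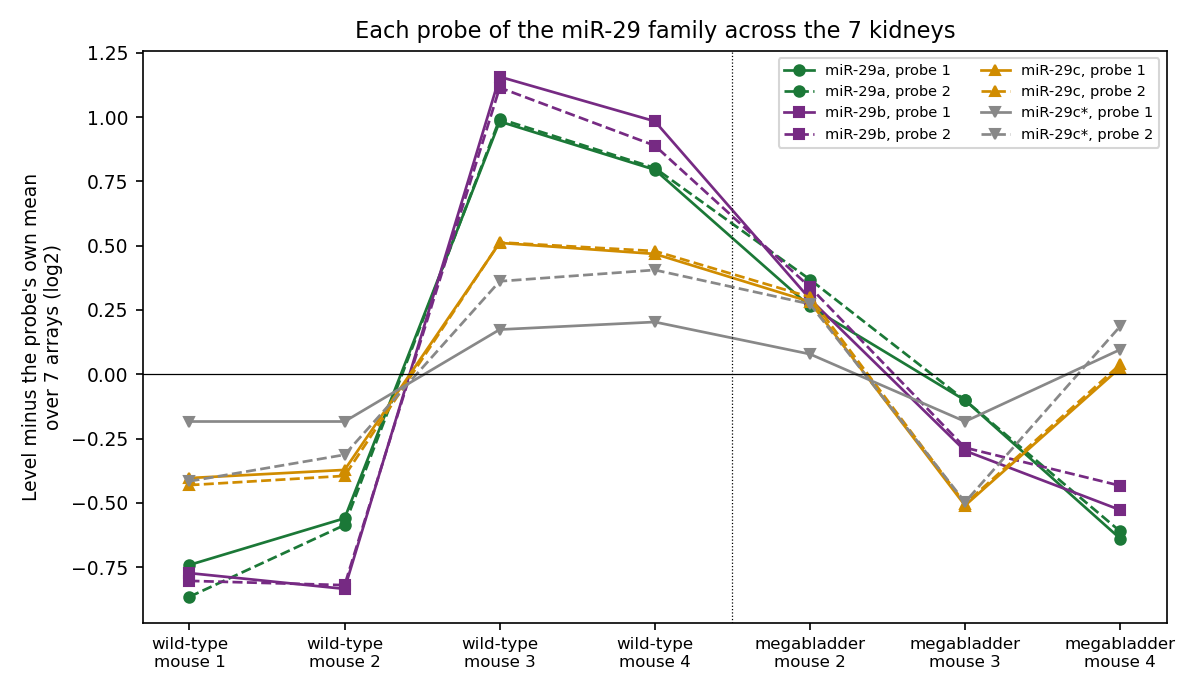
Level of each probe of the miR-29 strands in each kidney, minus that probe's own mean over the 7 arrays (vertical axis, log2 units), with the genotypes divided by the dotted line. The paired solid and dashed lines of each guide nearly coincide, and the miR-29c* lines (grey) turn up and down in the same kidneys as those of mmu-miR-29c (yellow).

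Set against all tested microRNAs, the guides were among the most variable in the wild-type group. The wild-type SD of mmu-miR-29b (1.07) was the 10th highest of 213, that of mmu-miR-29a (0.92) the 12th and that of mmu-miR-29c (0.52) the 22nd, where the median over all was 0.144. All 9 microRNAs with a higher wild-type SD than mmu-miR-29b, and 10 of the 11 with a higher one than mmu-miR-29a, belonged to the repeat-rich families. Among the 67 microRNAs above 100 scaled units, a limit chosen after the values were seen, mmu-miR-29b and mmu-miR-29a had the 2 highest wild-type SDs and mmu-miR-29c the 4th, against a median of 0.107, and none of the 67 was of the repeat-rich families. In the megabladder group mmu-miR-29a (0.47), mmu-miR-29b (0.42) and mmu-miR-29c (0.41) were 22nd, 27th and 30th of 213, with a median of 0.2003, and 6th, 8th and 10th of the 67, with a median of 0.196.

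The mice behind this spread can be named. In wild-type mice 3 and 4, mmu-miR-29b had the highest deviation from its genotype mean of all 213 microRNAs, at 1.02 and 0.82 log2 units, and mmu-miR-29a the 2nd highest, at 0.89 and 0.70. mmu-miR-29c was 5th and 4th highest there. In wild-type mice 1 and 2 the same guides were among the 5 lowest, which follows in part because deviations within a group sum to 0. In megabladder mouse 2, mmu-miR-29b was 2nd, mmu-miR-29a 4th and mmu-miR-29c 6th highest. The guides parted in megabladder mice 3 and 4: mmu-miR-29c was at -0.45 from its genotype mean in mouse 3, where mmu-miR-29a was at 0.036 from its own, and at 0.093 in mouse 4, where mmu-miR-29a was at -0.49.

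**Figure D4:**
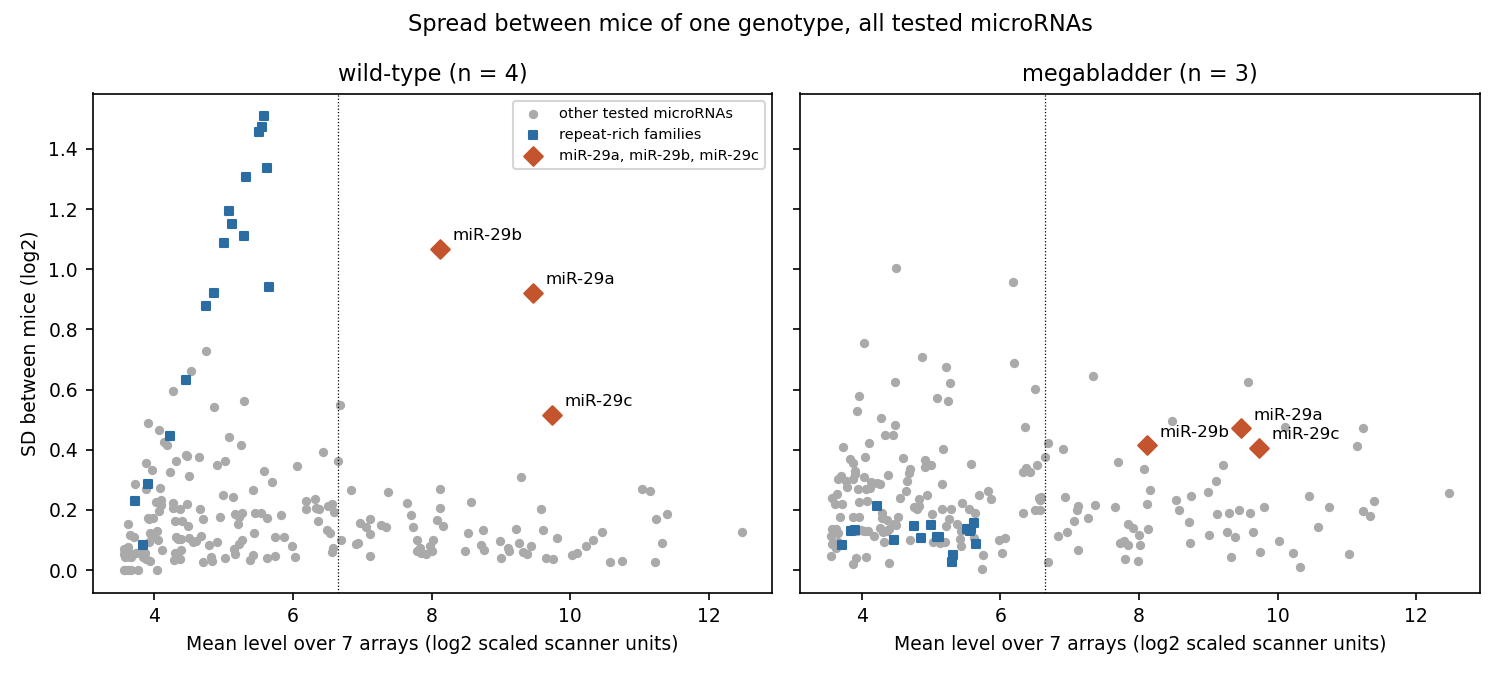
SD between mice of a genotype (vertical axis, log2 units) against the mean level over 7 arrays (horizontal axis, log2 scaled scanner units) for the 213 tested microRNAs, with the miR-29 guides as orange diamonds and the repeat-rich families as blue squares; the dotted line is at 100 scaled units. To the right of it, mmu-miR-29b and mmu-miR-29a have the highest wild-type SDs, 1.07 and 0.92, while in the megabladder panel the 3 guides lie at 0.41 to 0.47 among others.

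Ratios within an array show whether the guides moved by the same amount. The log2 ratio of mmu-miR-29b to mmu-miR-29a was -1.34, -1.61, -1.20 and -1.21 in wild-type mice 1 to 4 and -1.35, -1.54 and -1.21 in megabladder mice 2, 3 and 4. It varied with an SD of 0.165 over the 7 arrays, although mmu-miR-29a alone moved 3.46-fold and mmu-miR-29b 3.90-fold among the wild-type mice. Since probes differ in brightness, the value of the ratio is not a ratio of molecules, and its movement between mice is what can be read. The genotype means were -1.34 ± 0.19 (SD, n = 4) and -1.37 ± 0.17 (SD, n = 3), which differed by -0.027 (2-sided exact permutation p = 0.8).

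The ratios that involve mmu-miR-29c varied more. mmu-miR-29c to mmu-miR-29a was 0.65, 0.46, -0.21 and -0.059 in wild-type mice 1 to 4, and 0.24, -0.14 and 0.92 in megabladder mice 2, 3 and 4, with an SD of 0.431 over the 7 arrays. The genotypes overlapped and differed by 0.13 (exact permutation p = 0.714). mmu-miR-29c to mmu-miR-29b had an SD of 0.456 and differed by 0.16 (exact permutation p = 0.686), and adjusted over the 3 ratios each had p = 0.8. In wild-type mice 3 and 4, where all 3 guides were high, both of these ratios were lower than in wild-type mice 1 and 2, since mmu-miR-29a and mmu-miR-29b moved further than mmu-miR-29c did.

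**Figure D5:**
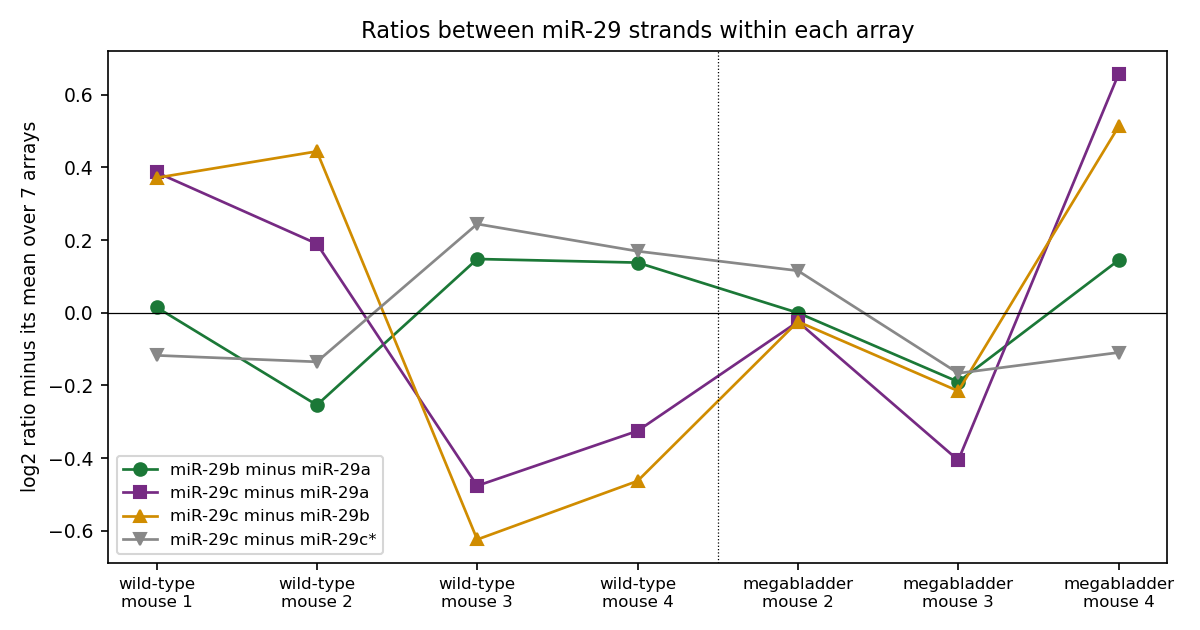
Log2 ratio between miR-29 strands on each array, minus its mean over the 7 arrays (vertical axis), with the genotypes divided by the dotted line. The ratio of mmu-miR-29b to mmu-miR-29a (green, SD 0.165) and that of mmu-miR-29c to miR-29c* (grey, SD 0.17) stay nearer 0 than the ratios of mmu-miR-29c to mmu-miR-29a (SD 0.431) and to mmu-miR-29b (SD 0.456).

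Passenger strands, which are cut from the other arm of the hairpin and mostly degraded, were dim. miR-29a* was detected on none of the 7 arrays with any of its 4 probes, nor by the scanner software. By the rule that at least 0.5 of a probe's spots be above background, miR-29b* was detected on 1 array, that of wild-type mouse 3, with 1 of its 4 probes, while the scanner software called it detected on 2 arrays. Neither was tested. miR-29c*, which comes from the same hairpin as mmu-miR-29c, was tested and had 3.93, 3.98, 4.49 and 4.53 log2 units in wild-type mice 1 to 4 and 4.40, 3.89 and 4.37 in megabladder mice 2, 3 and 4. The genotypes overlapped, with a difference of -0.014 (95% interval -0.51 to 0.48, limma adjusted p = 0.982). One of its probes was above background on 3 arrays only, so its mean level understates the movement.

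The brighter probe of miR-29c* was above background on all 7 arrays. It had 4.34, 4.44, 5.12 and 5.16 log2 units in wild-type mice 1 to 4, and 5.03, 4.26 and 4.94 in megabladder mice 2, 3 and 4. As for mmu-miR-29c, the lowest value was that of megabladder mouse 3. The SD over the 7 arrays of the log2 difference to this probe, a measure chosen after the values were seen, was 0.097 for mmu-miR-29c, 0.514 for mmu-miR-29a and 0.544 for mmu-miR-29b. All points share arrays, so these are descriptions with no test.

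By the SD over the 7 arrays of the log2 difference to a guide, which cancels the scaling factor, the 5 tested microRNAs nearest to each guide were named, the other guides left out. For mmu-miR-29c they were miR-29c* (0.170), miR-22 (0.215), miR-193* (0.222), miR-155 (0.267) and miR-22* (0.267), where the median of all others was 0.499. miR-22, itself bright, had 10.97, 10.96, 11.36 and 11.46 log2 units in wild-type mice 1 to 4 and 11.27, 10.62 and 11.38 in megabladder mice 2, 3 and 4, so that megabladder mouse 3 was again the lowest. For mmu-miR-29a the nearest were miR-7a (0.509), miR-34a (0.523), a target of p53, miR-96 (0.523), miR-155 (0.527), a leukocyte microRNA, and miR-29c* (0.546), with a median of 0.786. For mmu-miR-29b they were miR-155 (0.543), miR-29c* (0.597), miR-7a (0.612), miR-690 (0.625) and miR-34a (0.640), with a median of 0.860. The other guides lay nearer to mmu-miR-29a and mmu-miR-29b than any of these, with an SD of 0.165 between mmu-miR-29a and mmu-miR-29b. From mmu-miR-29c the SD was 0.431 to mmu-miR-29a and 0.456 to mmu-miR-29b. Some of the microRNAs named were dim, which limits how far they can move. In megabladder mouse 3, miR-155 and miR-193* were at the floor of 3.51 log2 units, and miR-7a lay between 3.81 and 4.37 over all arrays.

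Other microRNAs held to restrain matrix or TGF-beta pathway genes, the let-7, miR-30, miR-200, miR-26 and miR-133 groups, had 21 of 23 members tested. In limma let-7e, of the let-7 family that restrains growth, fell, from a mean of 8.25 to 7.68 log2 units (-0.57, adjusted p = 0.0315). It was lower under all 22 alternatives, from -1.31 to -0.37, and its call was lost under 13 of them (adjusted p from 0.00523 to 0.262). Leaving out wild-type mouse 1, 2, 3 or 4 ended the call (adjusted p = 0.0813, 0.0790, 0.0954 and 0.0919), as did leaving out megabladder mouse 2 (0.103). Scaling over all probes (0.0716) and quantile normalization (0.125) ended it as well. No other member of the 21 passed. An unadjusted p under 0.05 was found for 23.8% of the 21 and 23.0% of all 213 tested, and the groups did not overlap for 23.8% of the 21 and 22.1% of all, so both shares were near those of all microRNAs. Their median difference was -0.12, with a range of -0.57 to 0.26, against 0.09 over all 213, and 15 of the 21 were negative (71.4%), against 68 of 213 (31.9%). These shares were not matched for brightness, and the 213 include 17 repeat-rich microRNAs, all of them positive. The signs also depend on the scaling, since the median over all was -0.50 with none. Members of a family such as let-7 were counted separately, so the share is a description with no test. Those left untested were miR-133a and miR-133b, the muscle microRNAs, above background on 0 and 2 arrays.

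MicroRNAs held to rise with matrix deposition had 8 of 11 members tested, and limma called none. An unadjusted p under 0.05 was found for 2 of the 8, a share of 25.0% against 23.0% of all tested. Their median difference was 0.23, with a range of -0.47 to 0.95, and 3 of the 8 were negative. The lowest were miR-155 (-0.47, adjusted p = 0.388) and miR-34a (-0.45, adjusted p = 0.512). miR-21, which is raised in many fibrotic tissues, had 0.087 (adjusted p = 0.838). Its passenger strand miR-21* was at the floor in 3 of 4 wild-type kidneys and at 4.05, 4.31 and 5.07 log2 units in megabladder mice 2, 3 and 4, so its fitted difference of 0.95 (adjusted p = 0.0551) was measured against the floor.

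Kidney markers were present: the 7 kidney microRNAs, among them miR-192 and miR-194 of the tubule, summed to 3855 to 4023 scaled units in wild-type and 3591 to 4087 in megabladder kidneys. None of the 7 passed in limma, or had an unadjusted p under 0.05. The 4 tested stromal microRNAs (miR-199a-3p, miR-199a-5p, miR-199b* and miR-214) had a median difference of 0.40, against 0.09 over all tested, and none passed. Of the 4, 2 had an unadjusted p under 0.05, as did 49 of all 213. They summed to 352.4, 377.8, 288.1 and 280.1 units in wild-type mice 1 to 4 and to 425.5, 575.4 and 353.2 in megabladder mice 2, 3 and 4. The lowest sums were thus those of wild-type mice 3 and 4, where the miR-29 guides were highest. The other kidneys did not keep this inverse order for any guide. In megabladder mouse 2, whose sum was above those of wild-type mice 1 and 2, every guide was also above its level in those mice. In megabladder mouse 3, with the highest sum, mmu-miR-29a and mmu-miR-29b were above wild-type mice 1 and 2, while mmu-miR-29c was the lowest of all kidneys. The part of stromal RNA in the miR-29 levels was not tested.

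The other cell type markers gave no called difference in limma. The 3 microRNAs of urothelium and stratified epithelium summed to 58.8 to 64.0 units in wild-type and 59.7 to 115.4 in megabladder kidneys (2 of 3 at an unadjusted p under 0.05, against 49 of 213 over all). Their defining marker miR-205 was at the floor of 3.51 log2 units in every wild-type kidney and at 5.61, 4.41 and 4.21 in megabladder mice 2, 3 and 4, with no overlap. Its fitted difference of 1.23, measured against the floor, did not pass (limma adjusted p = 0.0712). With no filter on dim probes the difference was 0.79 (limma adjusted p = 0.5085). The part of miR-205 in the miR-29 levels was not tested. The other with an unadjusted p under 0.05, miR-31, was also near the floor in wild-type kidneys, with a mean of 3.54 log2 units. miR-205 was above background on 4 arrays and miR-31 on 3, and a probe needed 3 to be tested. The share of 2 of 3 thus depends in part on that filter. The remaining member, miR-203, was lower in megabladder kidneys (-0.17, limma adjusted p = 0.82). The 4 tested leukocyte microRNAs of 6 summed to 153.4 to 201.3 and 139.0 to 200.3 units. The 3 erythroid microRNAs summed to 2129 to 2811 and 1952 to 3724 units, the 2 of smooth muscle to 150.2 to 190.5 and 166.0 to 206.6, and the 2 of endothelium to 1565 to 1627 and 1364 to 1668. None of these last 4 lists had a member at an unadjusted p under 0.05. miR-124 of neurons was above background on no array, miR-122 of liver on 1 and miR-1 of muscle on 2.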

How the data were processed

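Total RNA (100 ng per kidney) was labelled with Cy3 and read on 1-colour arrays, per the labels' protocols. The deposited intensity of each spot, background-subtracted and not scaled between arrays, came from Agilent Feature Extraction 10.7.3.1, as the submitters' processing notes and the headers state. The authors' deposited value table served as an alternative for 191 tested microRNAs: 532 of its 650 names come before the first whose value is over 1 log2 unit from its own signal, the miR-29 names among them.

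Control and outlier spots (3.45% to 3.77% per array) were left out. The spots of a probe were averaged, and the means scaled by the 75th percentile over 292 probes, floored at 11.4 units and put on a log2 scale. A probe counted as detected where at least 0.5 of its spots were well above background, and probes detected on at least 3 arrays were averaged per microRNA. Probes are named by the files. The test between genotypes was that of limma 3.58.1 (R 4.3.3; lmFit, then eBayes), with Benjamini-Hochberg adjustment over 213 microRNAs. The fit was tested on simulated data. Ratios used exact permutation tests over samples.

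The members and lists were chosen with earlier results of these data known. The rule named the 3 guides, their passenger strands, the 5 microRNAs most like each guide, list members past the test and defining markers; other names were chosen after their values were seen. Alternatives changed the scaling, the background correction, the filter and floor on dim probes, the choice of probes, the test, the replicate block or the arrays used. Normexp used the median spot signal. The number of arrays limits the precision.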

Additional observations from a re-analysis of the deposited data

How the results depend on the processing

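No guide was called in limma under any of 22 alternatives: adjusted p ran from 0.171 to 0.999 for mmu-miR-29a, 0.181 to 0.998 for mmu-miR-29b and 0.104 to 0.988 for mmu-miR-29c. The difference stayed negative in 19, 18 and 16 of them. With array weights, whose fit stopped before its tolerance, it was 0.13, 0.15 and 0.21, and for mmu-miR-29c it was 0.036 with the authors' deposited table. With wild-type mice 3 and 4 both left out it was 0.54, 0.64 and 0.32, the ratios of mmu-miR-29b to mmu-miR-29a, of mmu-miR-29c to mmu-miR-29a and of mmu-miR-29c to mmu-miR-29b differed by 0.10, -0.21 and -0.32, and the guides relative to the array median by 0.41, 0.51 and 0.20. Leaving out single mice gave differences from -0.54 to 0.056 for mmu-miR-29a, -0.58 to 0.074 for mmu-miR-29b and -0.29 to 0.12 for mmu-miR-29c. The same 3 ratios then ran from -0.12 to 0.060, -0.16 to 0.37 and -0.052 to 0.33, and the guides relative to the array median from -0.95 to -0.22, -1.003 to -0.20 and -0.68 to -0.23. The ratio of mmu-miR-29b to mmu-miR-29a turned to 0.11 with normexp and to 0.11 with the authors' deposited table, that of mmu-miR-29c to mmu-miR-29b to -0.0345 with normexp, and mmu-miR-29c relative to the array median with the authors' deposited table to 0.014. The cause was not tested.

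Against 7 microRNAs called (49 at an unadjusted limma p under 0.05), there were 0 with scaling over all probes (107), quantiles (45), normexp (35), no filter (40) and a floor of 1 (30), 1 with the authors' deposited table (27), 2 with median scaling (46) or total gene signal (33), 4 with probes detected on all arrays, 17 with array weights, 69 with no scaling, 1 without wild-type mice 3 and 4 and 0 to 11 without single mice. The labels do not say whether the mouse numbers shared by the genotypes pair the samples, and same-numbered mice lay in the same slide column. Deviations of same-numbered mice correlated at -0.21, 0.0066 and 0.21 across microRNAs. With so few mice per genotype these correlations cannot decide whether the samples were paired. With the replicate block over mice 2 to 4 there were 28 calls and the guides differed by -0.54, -0.57 and -0.26 (adjusted p 0.611 to 0.778).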
